A study of Mus musculus with 4 samples.

Results

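The heat shock and chaperone genes described here are the HSP70, HSP90, HSP60, HSP10, HSP110 and small heat shock genes, the J proteins, the heat shock factors Hsf1 and Hsf2 and the BAG genes of in vitro myeloid-derived suppressor cells (MDSCs). Members were chosen by symbol (beginning with Hspa, Hspb, Hspd, Hspe, Hsph, Hsp90, Dnaja, Dnajb or Dnajc, or being Hsf1, Hsf2 or Bag1 to Bag6, without pseudogenes) and by a minimum of 50 unique molecular identifiers (UMIs, each counting 1 captured mRNA molecule) over the 4 libraries of the series. Of 32285 genes listed, 83 matched the symbols and 68 were members; 12988 genes of all kinds reached the same minimum. The other 15 genes were at 38 UMIs or fewer, among them the small heat shock genes Hspb1, Hspb2 and Hspb8 with 1 UMI each over the 4 libraries, which is under the floor of 3 UMIs.

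Molecular chaperones hold unfolded or partly folded proteins until they fold, and they work in relays. J proteins hand a client to HSP70, nucleotide exchange factors such as the BAG and HSP110 proteins release it, and HSP90 takes over late in the folding of kinases and receptors. Each compartment has its own set: Hspa8, Hsp90aa1 and Hsp90ab1 in the cytosol, Hspa5 and Hsp90b1 in the endoplasmic reticulum (ER), and Hspa9, Hspd1 and Hspe1 in mitochondria. In heat shock, the factor Hsf1 drives the inducible cytosolic members such as Hspa1a, Hspa1b and Dnajb1, whereas misfolded protein in the ER raises Hspa5, Hsp90b1 and Dnajb9 through the unfolded protein response.

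MDSCs, immature myeloid cells that dampen immune responses, were grown from mouse bone marrow for 4 days with recombinant IL-6 and GM-CSF (each at 40 ng/mL), and live CD11b+ cells were sorted for single-cell RNA-seq on the 10X Genomics platform. Of the series' 4 libraries, 2 are described, both of WT cells from C57BL/6J mice 6 to 10 weeks old: 1 with the vehicle PBS (WT+PBS) and 1 with isoproterenol (ISO, a β-adrenergic agonist, 10 µM; WT+ISO). The number of mice behind each library is not given in the sources used here. The sample titles and the study's methods place ISO in the libraries named plus ISO, while the treatment notes of the labels list it for all; the titles and methods were followed.

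Each group was 1 library, so there was no replicate and no test, and no p-value is given. After filtering, WT+PBS held 2210 cells and 24393687 UMIs, with a median of 8088.5 UMIs per cell, and WT+ISO held 2264 cells and 29400468 UMIs, with a median of 10252; no cell barcode was shared. Levels are UMIs of a gene per 1000000 UMIs of all genes (CPM); they are not per length and were compared between samples and clusters, never between genes. Ratios are log2 of the CPM of WT+ISO over that of WT+PBS, with exact conditional binomial 95% intervals, which cover counting error only and not the difference between cultures, animals or sorts. Itgam, the gene of the sorting marker CD11b, was found in 87.5% of the PBS cells and 88.4% of the ISO cells. The 68 members held 409490 UMIs in these libraries, 0.761% of the UMIs of all genes.

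Cells fell into 10 clusters, numbered from cluster 0, with the members left out of the genes used for clustering. Clusters were named only from fixed markers: cluster 0 (882 WT cells) was mature neutrophil-like, clusters 3 and 5 (673 and 459 cells) specific-granule neutrophil-like, cluster 4 (289 cells) macrophage-like, cluster 7 (281 cells) azurophil-granule neutrophil progenitor-like with Mpo, Ctsg and Elane leading, and cluster 9 (53 cells) dendritic cell-like. Clusters 1 (886 cells, led by Gpnmb and Atp6v0d2), 2 (513 cells, led by Csta3 and Csta2), 6 (349 cells, with Kcnq5, Shmt2 and Phgdh among its leading genes) and 8 (89 cells, led by Stfa3 and Stfa2) stayed unnamed. A name also needed a marker among the cluster's 10 leading genes, which clusters 1 and 8 lacked. Cluster 8 did have 7 specific-granule neutrophil markers in at least 10% of its cells (mean log2 ratio to other cells 1.34). Cluster 1 likewise had 5 mature neutrophil markers (1.78).

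Chaperone transcripts were concentrated in clusters 6 and 7. All members together reached 12186 CPM in cluster 6 and 12088 CPM in cluster 7, against 2646 CPM in the mature neutrophil-like cluster 0, 3064 CPM in cluster 5 and 3437 CPM in cluster 8. Clusters 2, 9 and 4 lay between, at 8220, 7272 and 7102 CPM. The order was alike in each library: members were at 11768 CPM (PBS) and 12462 CPM (ISO) in cluster 6, at 11638 and 12381 CPM in cluster 7, and at 2423 and 2766 CPM in cluster 0. Among the clusters named neutrophil-like or neutrophil progenitor-like the sum was 12088 CPM in cluster 7, 5519 CPM in cluster 3, 3064 CPM in cluster 5 and 2646 CPM in cluster 0. Clusters 6 and 7 also had the most UMIs per cell, with medians of 24245 and 25174 against 5213.5 in cluster 0, and doublets were not removed; their part in the difference was not tested.

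Of the 56 members with at least 500 UMIs over the series, 34 (60.7%) had their highest CPM in cluster 6 or 7, compared with 30.8% of the 9238 genes at that minimum, and 43 (76.8%) had their lowest CPM in cluster 0, 5 or 8, compared with 58.8% of genes. These are the clusters where the sum of the same members was highest and lowest. The shares therefore describe the members and cannot show that they differ from all genes. For 28 of the 56, the highest cluster was 6 or 7 in each library. The ratio of highest to lowest cluster had a median of 4.52 among these members and 4.53 among all genes, so the members ranged about as far as all genes. The highest cluster was the same in both libraries as in their sum for 42 members and in 1 library for a further 12.

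The steepest gradients included the mitochondrial chaperonin. Hspd1 (HSP60, the barrel that folds imported mitochondrial proteins) was at 19.1 CPM (95% Poisson interval 15.4 to 23.4) in cluster 0 and 503 CPM (95% Poisson interval 488 to 518) in cluster 6, a 26.3-fold span. Its lid Hspe1 (HSP10) went from 16.4 CPM in cluster 0 to 418 CPM in cluster 6, 25.5-fold. Hsph1 (HSP110, a nucleotide exchange factor for HSP70) was at 0.830 CPM in cluster 0 and 46.0 CPM in cluster 6, 55.4-fold apart. Dnajc9, a J protein that also chaperones histones, spanned 2.28 CPM in cluster 0 to 99.8 CPM in cluster 7 (43.7-fold), and was at 92.2 CPM in the neutrophil-like cluster 3. Hspa9 (mortalin, the mitochondrial HSP70) went from 12.5 CPM in cluster 5 to 187 CPM in cluster 6.

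The abundant cytosolic chaperones followed the same slope. Hsp90aa1, the more inducible HSP90, was at 96.7 CPM in cluster 0 and 1493 CPM in cluster 7, 15.4-fold. Hsp90ab1, the constitutive HSP90, went from 299 CPM in cluster 0 to 3152 CPM in cluster 6, 10.6-fold. Hspa8, the constitutive HSP70, went from 259 to 1823 CPM between the same clusters, 7.04-fold. Their J protein Dnaja1 ranged less, from 78.9 CPM in cluster 0 to 299 CPM in cluster 7 (3.79-fold).

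Among the 10 ER members, 3 were lowest in the unnamed cluster 1 and highest in cluster 7: Hspa5, Hsp90b1 and Dnajc3. Hspa5 (BiP, the ER HSP70) went from 153 CPM in cluster 1 to 800.2 CPM in cluster 7, 5.24-fold. Hsp90b1 (GRP94, the ER HSP90) went from 224 to 1020 CPM between the same clusters (4.56-fold), and Dnajc3 (P58IPK, an ER cochaperone of BiP) from 41.3 to 137 CPM (3.32-fold). Dnajb11 (ERdj3, which delivers clients to BiP) was also highest in cluster 7, at 187 CPM, and lowest in cluster 9, at 62.7 CPM. Dnajb9 (ERdj4, which binds BiP in the unfolded protein response) ran differently, with its highest value in cluster 8 (45.6 CPM (95% Poisson interval 32 to 63.2)) and its lowest in cluster 9 (20.9 CPM).

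**Figure D1:**
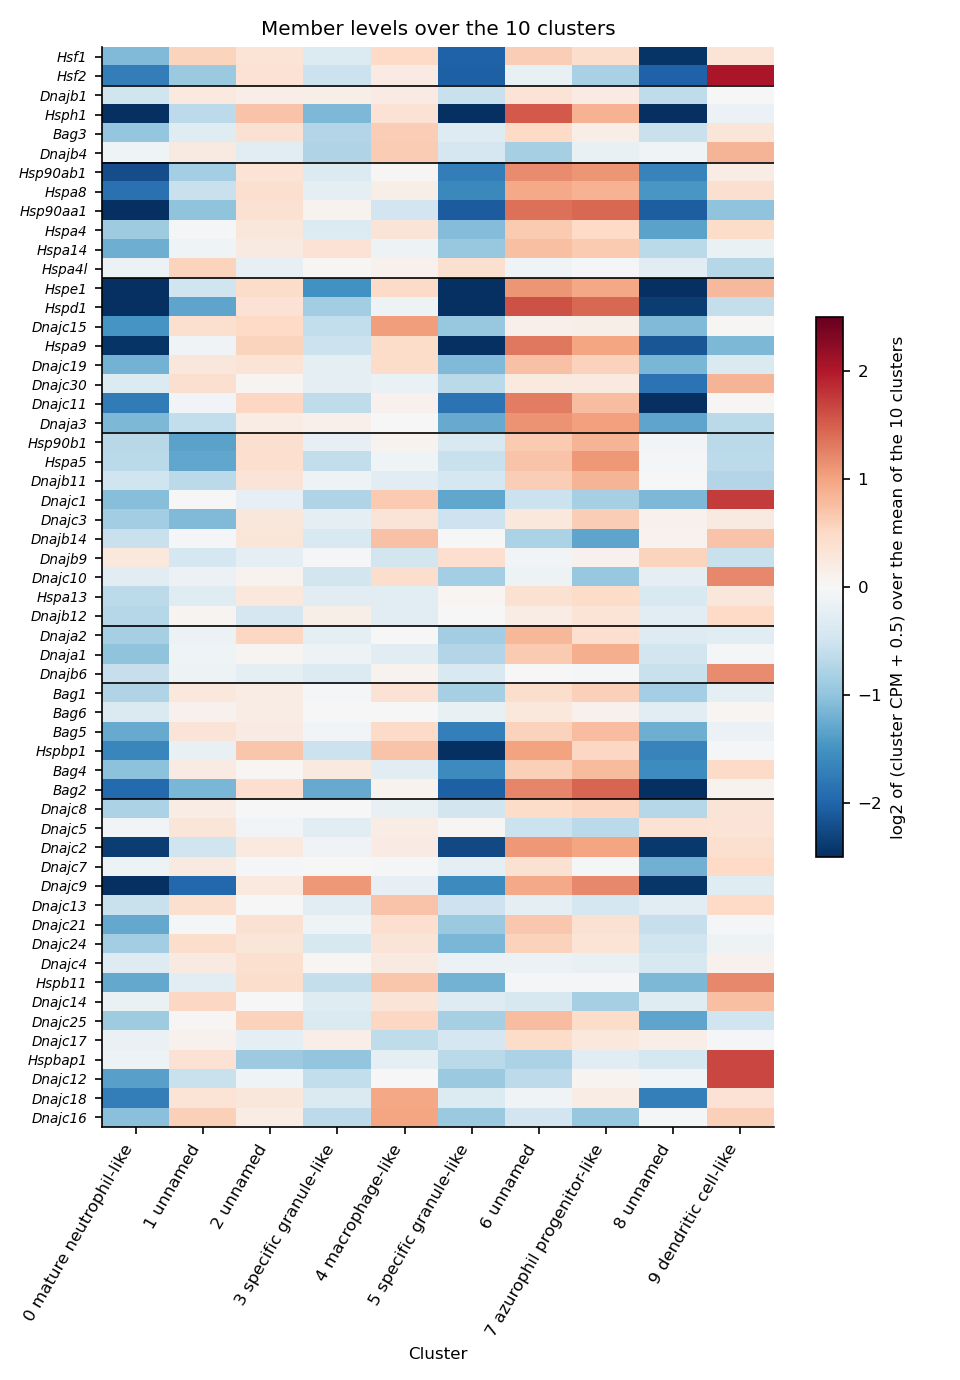
Heat map of the 56 members with at least 500 UMIs over the series (rows, grouped by role) over the 10 clusters (columns), both WT libraries together; colour is log2 of (CPM + 0.5) relative to the gene's mean over the clusters, with the colour scale ending at 2.5 in each direction. Most rows are highest in cluster 6 or 7 (34 of 56) and lowest in clusters 0, 5 and 8 (43 of 56). Other rows are highest in cluster 9 (12, some by little) or cluster 4 (6).

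A minority of members peaked elsewhere. In the dendritic cell-like cluster 9, which held 53 cells, 12 members were highest, some on few UMIs and by little. Dnajb12 had 15 UMIs there (17.4 CPM, 95% Poisson interval 9.75 to 28.7), against 15.6 CPM in cluster 7. The share of all genes highest in cluster 9, or in cluster 4, is not given here. Dnajc1, an ER membrane J protein, was at 376 CPM (95% Poisson interval 336 to 419.6) in cluster 9, against 176 CPM in the macrophage-like cluster 4 and 45.3 CPM in cluster 5. Hsf2, the heat shock factor tied to development more than to heat, was at 29 CPM (95% Poisson interval 18.8 to 42.9) in cluster 9 and at 7.84 CPM in cluster 4. Hsf1, the factor of the heat shock response, was at 14.2 CPM (95% Poisson interval 11.8 to 17) in cluster 6 and at 13.7 CPM (95% Poisson interval 10.2 to 18) in cluster 1, which do not differ beyond counting error, and its single UMI in cluster 8 was under the floor of 3. Another 6 members were highest in the macrophage-like cluster 4, among them Bag3, the BAG protein of selective autophagy, at 23.3 CPM (95% Poisson interval 19 to 28.3). In cluster 6 Bag3 was at 21.6 CPM (95% Poisson interval 18.6 to 24.9), which does not differ beyond counting error, and in cluster 0 at 7.47 CPM. The flattest members were Bag6 (1.56-fold), Dnajc4 (1.75-fold), Dnajb1 (1.98-fold), Dnajc5 (2.05-fold) and Dnajc17 (2.18-fold). Bag2 ranged up to 15.8 CPM in cluster 7 and had no UMI in cluster 8, so no fold is given.

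The windows before Hspa5 and Hsp90b1 are shown because these genes had the same highest and lowest cluster and share a named sequence. The endoplasmic reticulum stress element (CCAAT, 9 bases of any kind, CCACG, on either strand) was present in the 250 bases before the start of 0.13% of 27025 genes in the RefSeq promoter table (GRCm38.p6), and among the members with an entry in those of Hspa5, Hsp90b1 and Dnajc3, which were each lowest in cluster 1 and highest in cluster 7. A match describes letters and does not show that a factor bound there. Hspa5 starts on the plus strand (chr2:34771840-34772089, 1 match) and Hsp90b1 on the minus strand (chr10:86705445-86705694, 2 matches, the second on the opposite strand); sequences run 5′ to 3′ towards the gene with matches in capitals.
Hspa5: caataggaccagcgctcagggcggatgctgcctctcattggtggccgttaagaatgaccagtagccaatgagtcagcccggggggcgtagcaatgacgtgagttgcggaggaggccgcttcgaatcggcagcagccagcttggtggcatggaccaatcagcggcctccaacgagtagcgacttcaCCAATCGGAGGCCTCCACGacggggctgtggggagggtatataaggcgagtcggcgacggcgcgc
Hsp90b1: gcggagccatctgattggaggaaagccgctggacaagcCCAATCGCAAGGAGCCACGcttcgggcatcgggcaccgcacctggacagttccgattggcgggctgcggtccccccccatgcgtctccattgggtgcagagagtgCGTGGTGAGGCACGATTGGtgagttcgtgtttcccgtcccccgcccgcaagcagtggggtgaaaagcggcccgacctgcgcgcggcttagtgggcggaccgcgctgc

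The windows before Hspd1 and Hspa1a are shown for the heat shock element, the site that heat shock factors bind, searched as GAANNTTC or TTCNNGAA on both strands (matches may overlap). This pair of units was found before 14.5% of the 27025 genes with a promoter entry and before 11 of the 54 members with one (20.4%). A run of 3 units was found before 0.514% of the genes, and among the members before Hspd1, Hspe1 and Dnajb6. Hspd1 and Hspe1, the barrel and lid of the chaperonin, were both lowest in cluster 0 and highest in cluster 6. The annotated spans of these genes on chromosome 1 overlap on opposite strands, so they may not be separate cases. Other members had the same lowest and highest cluster, among them Hsp90ab1, Hspa8, Dnajc19, Bag6 and Hsph1. Of these, Hsp90ab1 and Hspa8 had no promoter entry, so their windows were not searched. Hsph1 had a pair of units and no run of 3, so the pattern was not particular to genes with a run. Dnajb6 was also lowest in cluster 0 but was highest in cluster 9, at 301 CPM. Both genes shown start on the minus strand, Hspd1 at chr1:55087933-55088182 with 3 overlapping matches in a single run and Hspa1a at chr17:34972157-34972406 with 1 match; capitals mark the matches.
Hspd1: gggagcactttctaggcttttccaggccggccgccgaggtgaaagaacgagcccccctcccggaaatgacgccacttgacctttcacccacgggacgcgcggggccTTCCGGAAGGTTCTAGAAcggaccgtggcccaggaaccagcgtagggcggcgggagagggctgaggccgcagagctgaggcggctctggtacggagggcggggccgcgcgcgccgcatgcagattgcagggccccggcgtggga
Hspa1a: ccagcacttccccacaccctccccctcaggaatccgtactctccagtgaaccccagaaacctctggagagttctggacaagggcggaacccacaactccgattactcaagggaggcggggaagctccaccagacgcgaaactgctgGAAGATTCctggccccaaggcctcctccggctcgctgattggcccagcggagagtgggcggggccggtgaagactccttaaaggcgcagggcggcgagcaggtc

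Cluster shares differed between the libraries, which bears on every value summed over a library. Cluster 6 made up 6.56% of the PBS cells and 9.01% of the ISO cells, cluster 7 made up 5.20% and 7.33%, and cluster 9 made up 1.67% and 0.707%. The mature neutrophil-like cluster 0, low in chaperones, was also larger with ISO (16.3% and 23.0%), and the unnamed cluster 1 smaller (25.6% and 14.1%). Comparisons of the members were therefore also made with every cluster held at a fixed weight, the same in both libraries, and within clusters. The weights were shares of cells, whereas a library sum weights clusters by their UMIs. Clusters with few UMIs per cell thus count for more at fixed weights, where all members summed to 5663 CPM (PBS) and 5814 CPM (ISO). A change between library sums and fixed weights therefore reflects more than the cluster shares of the libraries. In values per library, more RNA of a gene per cell and more cells of a type cannot be told apart.

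With ISO, few members were past 1.5-fold. Of 63 members with at least 100 UMIs in the pair of libraries, 1 was at least 1.5-fold higher (Dnajc6; background 1% of 10771 genes) and 1 was at least 1.5-fold lower (Hspa1a; background 5.5%). The median log2 ratio of the members was 0.04 against -0.02 for all genes, and 41 of 63 (65.1%) were above 0, compared with 46.95% of the 10771 genes. At fixed weights the median was 0.08 (all genes 0.02), 43 of 63 were above 0 and 31.7% below, compared with 46.5% of genes below 0, no member was past 1.5-fold higher, and Hspa1a was again the lower one. All members together were at 7419 CPM with PBS and 7773 CPM with ISO, a log2 ratio of 0.07 (0.06 to 0.08), and of 0.04 at fixed weights.

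Dnajc6 (auxilin, which uncoats clathrin vesicles with Hspa8) went from 68 UMIs with PBS to 131 UMIs with ISO, 2.79 and 4.46 CPM, a log2 ratio of 0.68 (0.24 to 1.12). Most of its UMIs were in the progenitor-like cluster 7, 45 with PBS and 83 with ISO, and there its log2 ratio was 0.26 (-0.28 to 0.82). In cluster 6 it had 6 UMIs with PBS and 31 with ISO (log2 1.77, 0.49 to 3.32), fewer than the 100 UMIs asked for elsewhere. At fixed weights the ratio was 0.25, and Dnajc6 was no longer past 1.5-fold. Hspa1a is described at the end, since 2 cells held most of its UMIs.

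**Figure D2:**
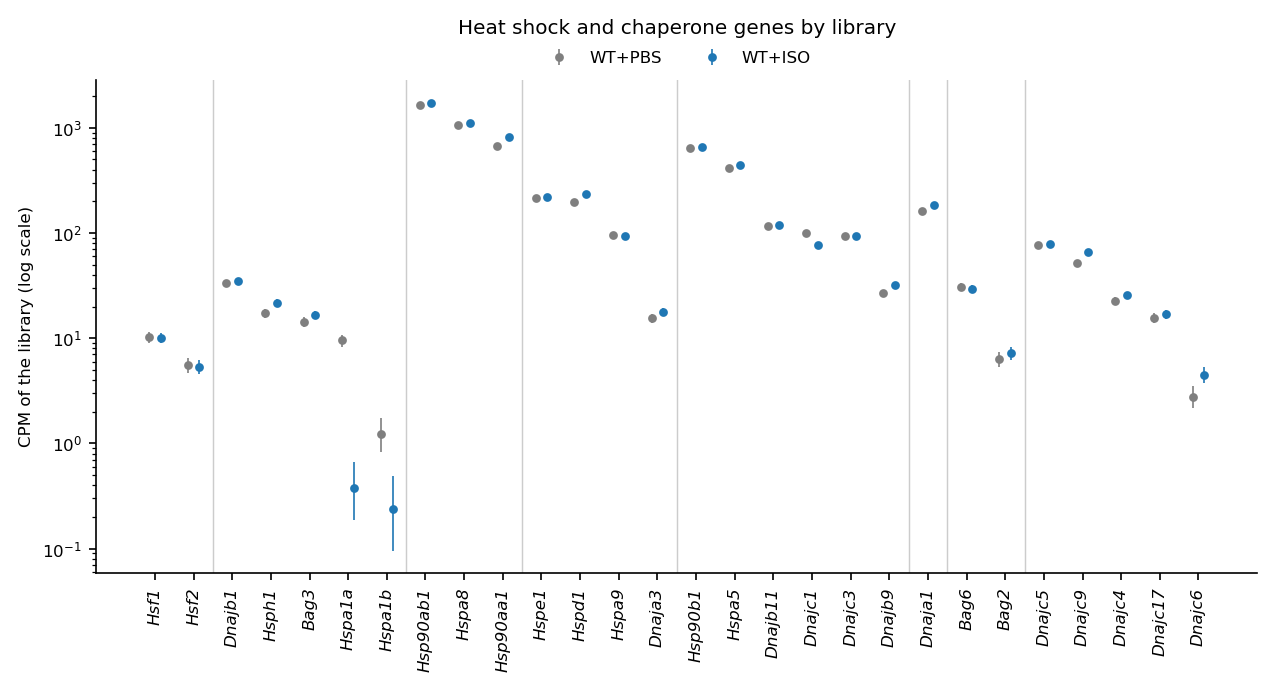
CPM (log axis) of the 28 named members in WT+PBS (grey) and WT+ISO (blue), with exact 95% Poisson intervals as bars; vertical lines separate roles. Most pairs of points lie close together, and Hspa1a is spread widest (9.51 and 0.374 CPM).

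Apart from Hspa1a, the heat shock factors and stress-inducible members were within 1.5-fold where tested. Hsf1 was at 10.2 CPM with PBS and 10.0 CPM with ISO (log2 -0.02, -0.27 to 0.23), and Hsf2 at 5.53 and 5.34 CPM (-0.05, -0.39 to 0.29), intervals that span 0 for both. At fixed weights their ratios were 0.20 and 0.17, without intervals and on few UMIs per cluster. Only 2 clusters had at least 100 UMIs of Hsf1, with 1 ratio above 0 and 1 below, and no cluster had that many of Hsf2. Dnajb1, the inducible J protein, was at 33.4 and 35.0 CPM (0.07, -0.07 to 0.20). Hsph1 was at 17.3 and 21.8 CPM (0.33, 0.15 to 0.51; 0.30 at fixed weights) and Bag3 at 14.3 and 16.5 CPM (0.21, 0.01 to 0.42; 0.29 at fixed weights). Of the 5 stress-inducible members tested, 4 were above 0 and Hspa1a was at -4.67. The stress-inducible members summed to 82.2 CPM with PBS and 81.1 CPM with ISO, the Hspa1a UMIs included (log2 -0.02, and -0.18 at fixed weights). Within clusters this sum was above 0 in 7 of the 8 clusters with at least 100 UMIs. It ranged there from 0.04 (-0.19 to 0.27) in cluster 7 to 0.53 (0.05 to 1.02) in cluster 0. The sum was below 0 in cluster 1 (-1.34, -1.68 to -1.02), which held the 2 PBS cells described at the end. Its value without those cells is not given here.

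Among the constitutive cytosolic HSP70 and HSP90 members, 6 of 7 tested were above 0, with a median of 0.06. Their sum was 3636 CPM with PBS and 3893 CPM with ISO (log2 0.10, 0.09 to 0.11), with a log2 ratio of 0.01 at fixed weights. That value averages shifts in both directions, since the sum was above 0 in 5 clusters and below 0 in 5. It was at 0.11 (0.09 to 0.14) in cluster 6 and 0.17 (0.14 to 0.19) in cluster 7, and at -0.24 (-0.29 to -0.19) in cluster 4. Hsp90ab1 was at 1651 and 1713 CPM (0.05, 0.03 to 0.07; -0.01 at fixed weights) and Hspa8 at 1071 and 1116 CPM (0.06, 0.03 to 0.08; -0.03 at fixed weights). Hsp90aa1 differed further, at 668.5 and 813 CPM (0.28, 0.25 to 0.31), and kept a log2 ratio of 0.12 at fixed weights. Its J partner Dnaja1 was at 163 and 186 CPM (0.19, 0.13 to 0.25; 0.09 at fixed weights).

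Mitochondrial members had no common direction, with 4 above and 4 below 0, and a sum of 785 and 809 CPM (0.04, 0.02 to 0.07). Hspd1 was at 197 and 235 CPM (0.26, 0.20 to 0.31; 0.20 at fixed weights). Its lid was closer to even: Hspe1 was at 215 and 220.0 CPM (0.03, -0.02 to 0.09; 0.09 at fixed weights). Hspa9 was at 95.8 and 93.8 CPM (-0.03, -0.11 to 0.05), and Dnaja3, its J protein, at 15.5 and 17.8 CPM (0.21, 0.01 to 0.40).

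ER members summed to 1490 CPM with PBS and 1501 CPM with ISO (0.01, -0.01 to 0.03), with 6 above and 4 below 0. Hsp90b1 was at 644 and 649.6 CPM (0.01, -0.02 to 0.04), Dnajc3 at 93.7 and 93.4 CPM, and Dnajb11 at 115 and 120.3 CPM (0.06, -0.01 to 0.13). Hspa5 was at 417 and 440.0 CPM (0.08, 0.04 to 0.11; 0.13 at fixed weights). Dnajb9 was at 26.7 and 32.3 CPM (0.27, 0.13 to 0.42; 0.22 at fixed weights). In the other direction Dnajc1 was at 99.1 and 77.1 CPM (-0.36, -0.45 to -0.28), and its ratio was -0.14 at fixed weights. Dnajc1 was among the 12 members highest in the dendritic cell-like cluster 9, which held 324 of its 4683 UMIs.

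The remaining roles held mostly small ratios. The BAG group held Bag1, Bag2, Bag4, Bag5, Bag6 and Hspbp1, while Bag3 was counted with the stress-inducible members. Of this group, 5 of 6 tested were above 0, and their sum was 253 and 267 CPM (0.08, 0.03 to 0.13, and 0.16 at fixed weights). Of the other J proteins and further members, 14 of 21 were above 0, and Dnajc9 was at 52.4 and 65.7 CPM (0.33, 0.23 to 0.43; 0.23 at fixed weights). Cytosolic DNAJA and DNAJB members were above 0 for 2 of 4.

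**Figure D3:**
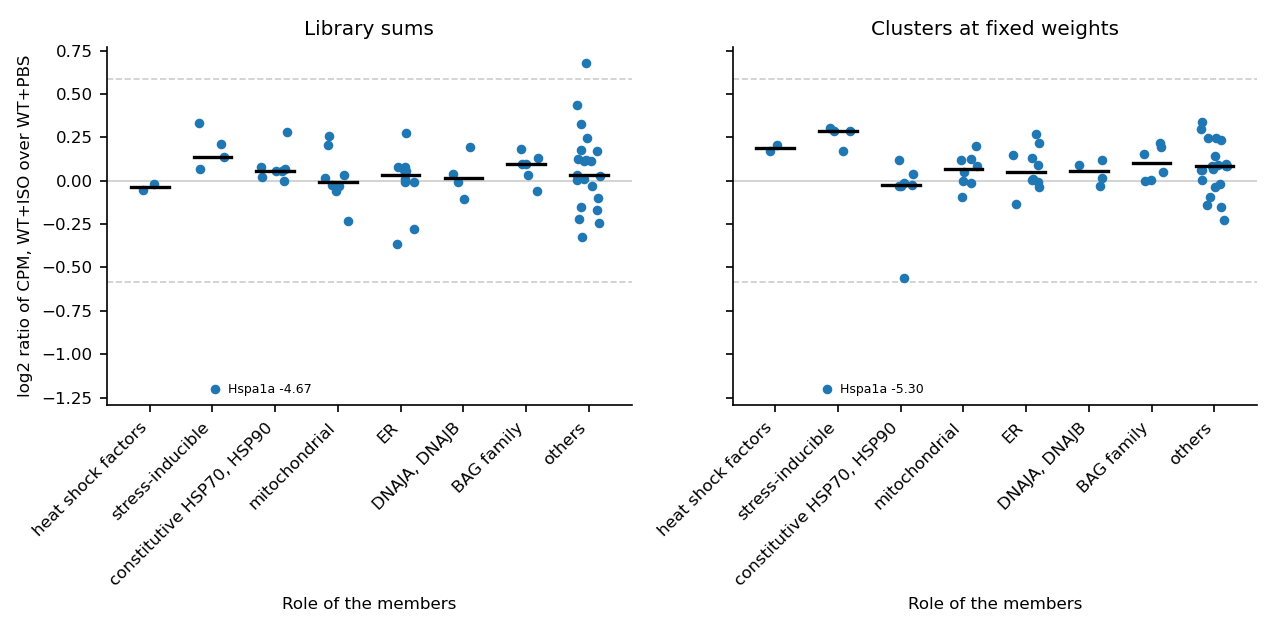
Log2 ratios of CPM, WT+ISO over WT+PBS, of the 63 members with at least 100 UMIs in the pair of libraries, by role, from library sums (left) and with clusters at fixed weights (right); bars are medians of the members of a role, dashed lines mark 1.5-fold, and Hspa1a is drawn at -1.2 with its value written beside it. Nearly all points lie within 1.5-fold on both scales, and at fixed weights the constitutive HSP70 and HSP90 members lie around 0, apart from Hspa2 at -0.56.

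Within clusters, the members' median ratio was highest in clusters 5 and 0, both low in chaperones. In the mature neutrophil-like cluster 0, the median log2 ratio was 0.19 over the 26 members with at least 100 UMIs there, with 21 above 0 and 5 below. All genes had a median of -0.03 there, with 53.7% below 0. In the specific-granule cluster 5 the members' median was 0.28 over 23 members, with 19 above 0 and 4 below, against 0.05 for all genes (42.2% below 0). In cluster 8, also low in chaperones, only 5 members had enough UMIs, with a median of 0.12, and the sum of all members had a ratio of 0.06 (-0.05 to 0.17). In the chaperone-rich clusters 6 and 7 it was 0.10 and 0.04 over 50 members each, against 0.04 and 0.03, and the sums had ratios of 0.08 and 0.09. In cluster 1 the members' median was near 0, with 17 of 35 members above 0 and 18 below, against -0.05 for all genes (58.0% below 0). In the macrophage-like cluster 4 it was 0.01, with 19 of 37 above 0 and 18 below, against 0.04 for all genes (44.8% below 0).

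Few members kept 1 direction throughout. Hspd1 and Dnajb9 were higher with ISO in each of the 6 clusters with enough UMIs, by log2 0.01 to 0.43 and 0.04 to 0.50. For Hspd1 the interval spanned 0 in clusters 1, 4 and 7, and for Dnajb9 in all of these clusters except cluster 0. Hspd1 and Dnajb9 were 2 of the 33 members (6.06%) that had at least 100 UMIs in 6 or more clusters. This share was near the background of 5.32% of 4661 genes for a ratio above 1 in every such cluster. No member was below 1 in every cluster (background 3.13%). Hsp90aa1 was higher in 9 of 10 clusters, by 0.25 (0.19 to 0.30) in cluster 6 and 0.20 (0.14 to 0.26) in cluster 7, and was lower in cluster 1 (-0.40, -0.60 to -0.21), where the 2 PBS cells described at the end held 82 and 65 of its 687 UMIs. Without those cells, an alternative chosen after seeing the data, the log2 ratio in cluster 1 was -0.07 (-0.27 to 0.13).

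Hspa8 and Hspa5 differed in opposite directions between clusters, by more than counting error. Hspa8 was higher with ISO in clusters 5 (0.34, 0.14 to 0.53), 6 (0.18, 0.13 to 0.23) and 7 (0.29, 0.24 to 0.34). It was lower in the macrophage-like cluster 4 (-0.43, -0.52 to -0.34), and by less in clusters 1 (-0.19, -0.31 to -0.07) and 2 (-0.06, -0.11 to -0.01). Without the 2 PBS cells described at the end, an alternative chosen after seeing the data, the Hspa8 ratio in cluster 1 was -0.14 (-0.26 to -0.01). Hspa5 was higher in the neutrophil-like clusters 0 (0.31, 0.13 to 0.50), 3 (0.21, 0.09 to 0.33) and 5 (0.46, 0.24 to 0.67). It was also higher in cluster 8 (0.36, 0.02 to 0.70), and lower in cluster 7 (-0.09, -0.17 to -0.02). Hsp90b1 was likewise higher in clusters 0 (0.21, 0.07 to 0.37) and 3 (0.19, 0.11 to 0.27) and lower in clusters 6 and 7 (-0.09, -0.15 to -0.02 in each). It was also lower in clusters 2 (-0.08, -0.15 to -0.01) and 9 (-0.46, -0.85 to -0.09). How far cultures of the same group vary within a cluster is unknown, and whether these differences exceed that was not tested.

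**Figure D4:**
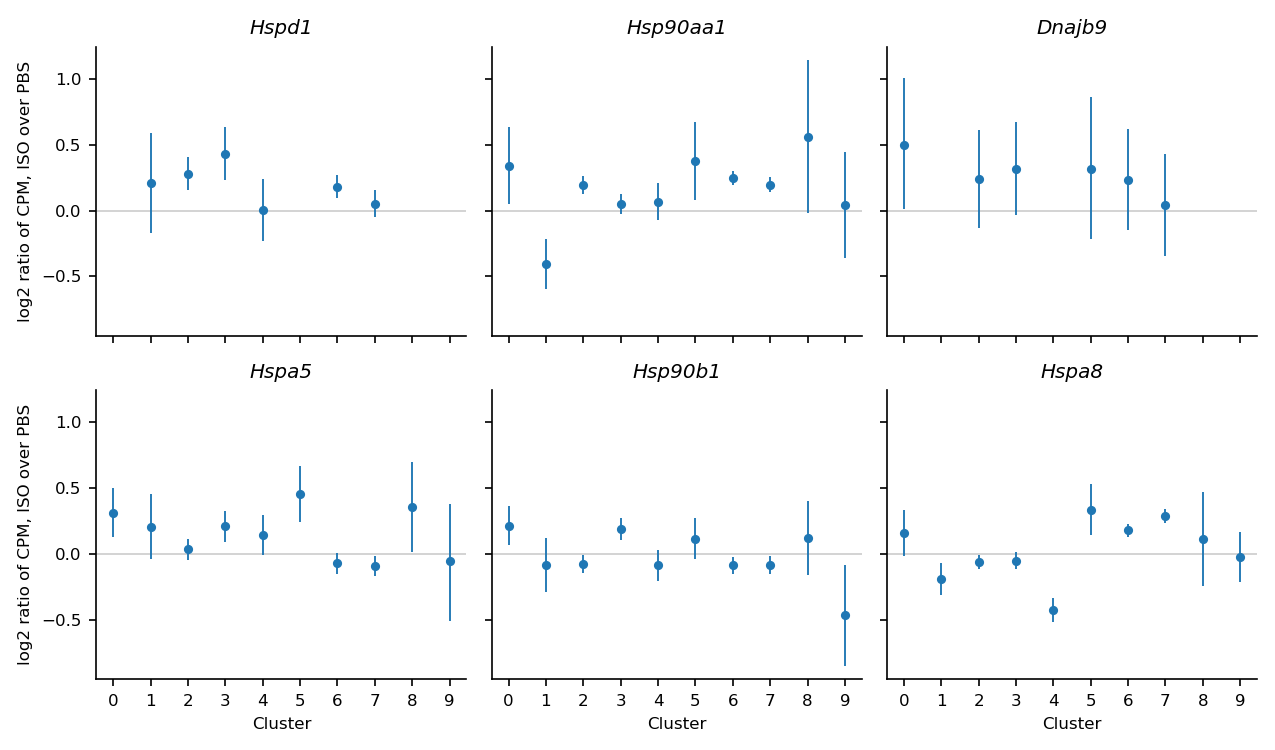
Log2 ratios of CPM, WT+ISO over WT+PBS, of Hspd1, Hsp90aa1, Dnajb9, Hspa5, Hsp90b1 and Hspa8 within each cluster that has at least 100 UMIs of the gene in the pair of libraries, with exact 95% intervals as bars. Hspd1 and Dnajb9 lie above 0 in each of their 6 clusters, Hsp90aa1 in 9 of 10, and Hspa5, Hsp90b1 and Hspa8 lie on both sides of 0. Bars span 0 for Hspd1 in clusters 1, 4 and 7, and for Dnajb9 in all clusters drawn except cluster 0.

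Other folding genes, taken from fixed lists, had medians on the same side as the members. Values of these lists are from library sums only, so the cluster shares were not held fixed. The median log2 ratio was 0.08 for 14 cochaperones of HSP90 and HSP70 (12 above 0), 0.09 for 14 subunits of the cytosolic chaperonin TRiC and prefoldin (12 above 0), 0.03 for 16 genes of ER folding and the unfolded protein response (11 above 0) and 0.04 for 10 of mitochondrial folding and proteolysis (6 above 0). None of the genes of these 4 lists was past 1.5-fold in either direction. The fixed list of immediate early and handling stress genes lay on the other side: 14 of 15 were below 0 with a median of -0.48. Of these 15, Fos, Atf3, Dusp1 and Socs3, named after their values were seen, were at least 1.5-fold lower with ISO (background 5.5% of genes). What these genes responded to was not tested. The part of these genes in the chaperone ratios was not tested either.

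For Hspa1a, the classic heat-inducible HSP70, the difference between the libraries rested mostly on 2 cells. It had 232 UMIs with PBS and 11 UMIs with ISO, 9.51 and 0.374 CPM, a log2 ratio of -4.67 (-5.69 to -3.80). Of the 232 UMIs, 212 (91.4%) were in 2 cells, 187 in one and 25 in the other, both in the unnamed cluster 1. Outside these cells, no cell had more than 2 Hspa1a UMIs, and the libraries held 20 UMIs with PBS and 11 UMIs with ISO (0.820 and 0.374 CPM), a log2 ratio of -1.13 on few UMIs. A Hspa1a UMI was found in 0.905% of the PBS cells and 0.486% of the ISO cells.

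The related Hspa1b had 30 UMIs with PBS and 7 UMIs with ISO, 28 of the 30 in the same cells, and without them its log2 ratio changed sign, from -2.37 to 1.54, on few UMIs. Hspa1a and Hspa1b share 58.8% of the 50-base windows of the Hspa1a transcript and none in its last 500 bases, where 3′ tags mostly fall. How reads from the shared windows further upstream were counted was not examined.

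Some other cytosolic chaperones were also frequent in these cells, and others were not. The cell with 187 Hspa1a UMIs held 19 of Hspa1b, 82 of Hsp90aa1, 51 of Hspa8 and 16 of Dnaja1 among 7119 UMIs, where cells of cluster 1 in its library, with a median of 3152 UMIs, averaged 1.21 of Hsp90aa1 and 2.65 of Hspa8. It held 8 UMIs of Hsp90ab1 (cluster mean 3.10) and none of Dnajb1 or Bag3. The other cell held 9 UMIs of Hspa1b, 65 of Hsp90aa1, 13 of Hspa8 and 17 of Hsp90ab1 among 7812, with 3 each of Dnajb1 and Bag3. Of the ER and mitochondrial members, Hspa5 had 1 UMI in the first cell and 5 in the other (cluster mean 0.571), Hspd1 had 1 in each (0.247), and Hspe1 had 2 and 13 (0.5). Members made up 5.48% and 2.32% of the UMIs of these cells, against 0.485% in cluster 1 of the same library. That share and the cluster means above include the 2 cells themselves. Apart from Hspa1a and Hspa1b, the highest share of a member's UMIs in 1 cell of a library was 13.2%, for Dnajc6 in WT+PBS.

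**Figure D5:**
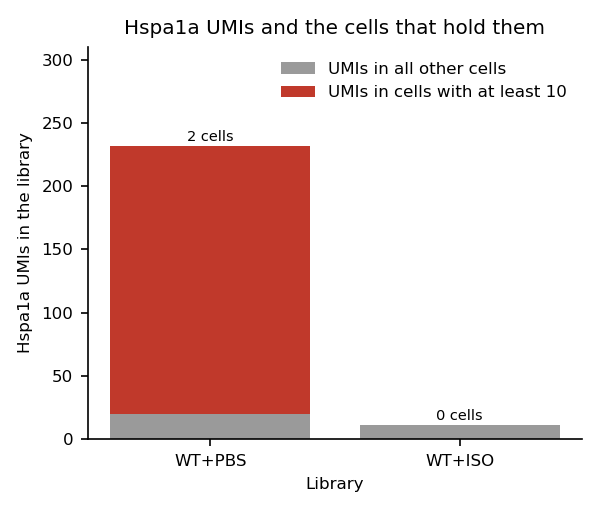
Hspa1a UMIs in each library (bars from 0), stacked as UMIs in cells with at least 10 Hspa1a UMIs (red) and UMIs in all other cells (grey). The high cells hold 212 of 232 UMIs in WT+PBS (2 cells), and the remainders are 20 and 11.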

How the data were processed

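Single-cell suspensions carrying multiplexing tags were sorted, pooled and run on the 10X Genomics platform. For each library the authors deposited raw UMI counts by gene and cell barcode; the labels name Cell Ranger 6.0.0, Seurat and mm10, whereas the file headers name Cell Ranger 7.0.0. In WT+PBS and WT+ISO 1 tag held 95.4% and 97.1% of the tag UMIs, and all 12 tags were dropped. Filtering (200 genes or more and a mitochondrial share of UMIs up to 10%) retained 4474 of the 4532 cells of these libraries; doublets were not called or removed. The other libraries and some genes are not reported here.

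Cells of all 4 libraries (9303) were clustered and the clusters named together, with scanpy 1.11.5 and leidenalg 0.10.2 (2000 variable genes, 30 principal components, 15 neighbours, resolution 0.4) without the members and the other gene lists; levels per cluster are from WT cells. UMIs were summed per library, or per library and cluster, and scaled to CPM with numpy 2.4.6 and scipy 1.17.1 (Python 3.11.15). A gene was compared with at least 100 UMIs over the pair of libraries and counted as higher or lower at 1.5-fold; there was 1 library per group, so no test was made and intervals (95%, Poisson or conditional binomial) cover counting error only. At fixed weights, the CPM of the clusters was averaged by each cluster's share of the cells of all libraries. The calculation of ratios and intervals was checked on simulated counts with known ratios. Named members were a fixed list of major chaperones, the 5 largest ratios, the 5 widest and 5 narrowest cluster ranges and the 5 most abundant; others named were chosen after their values were seen. The members, lists and rules were chosen with earlier results of these data known. Promoter windows came from RefSeq (GRCm38.p6), which had an entry for 54 of the 68 members. Alternatives were other cell filters, scalings, weights, UMI minimums, folds and clusterings.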

Additional observations from a re-analysis of the deposited data

How the results depend on the processing

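No paired analysis was possible because there was only 1 library in each group. Of 19 recomputed counts of members past 1.5-fold with ISO, 11 stayed within 1.5 times the count given and 8 did not; the cause was not tested. There was 1 higher member, and 0 with clusters at fixed weights, 0 with equal weight per cell, 2 with a minimum of 50 UMIs, 0 with a minimum of 500 and 4 at a looser fold threshold than 1.5. There was 1 lower member, and 0 with a minimum of 500 UMIs, 3 at a looser fold and 0 without the cells with at least 10 Hspa1a UMIs, an alternative chosen after seeing the data. Of 170 recomputed ratios of the 28 named members, 141 stayed within the counting interval of the value given and 29 did not, 9 of them with fixed weights and 8 with equal weight per cell; 20 had the other sign, none of them a ratio past 1.5-fold with enough UMIs. Size factors in place of library totals shifted the median of all genes by 0.043 on the log2 scale. With 10 clusters, 53 of 56 members (94.6%) ranged at least 2-fold between clusters, near the 92.0% of all genes. At a finer clustering of 18 clusters, 56 of 56 members did. Their median ratio of highest to lowest cluster was infinite there, since many members had no UMI in at least 1 cluster. The finer count therefore cannot show that the range holds. Leaving out the 1% of cells with the most UMIs of the gene removed every Hspa1a or Hspa1b UMI from at least 1 library, so that alternative gave no value. Genes with few UMIs are limited by depth, and 1 library per group limits every comparison.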
